A study of Mus musculus with 6 samples.

Results

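The mitosis genes described here were 39 genes whose products carry a cell through mitosis, taken as the rows of the deposited expression table that bear a listed gene name, and all 39 were found among the 48709 genes of the table. They were read in 6 libraries of RNA from mouse iNKT cells (invariant natural killer T cells), which recognise lipids presented by CD1d. Their summed level was highest in the libraries numbered 23 and 21 and lowest in those numbered 22 and 20, 2.17-fold apart at the extremes. Of the 26 members with at least 200 reads in total, 14 were highest in library 23 (22.1% of all genes tested) and 12 in library 21 (25.4% of all genes tested). The widest ratios among the tested members were in Tpx2, Ncapg and Kif4, and the smallest was in Smc4.

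The labels describe 3 samples of Gpx4 cKO cells, in which Gpx4 was conditionally knocked out, the gene of a glutathione peroxidase that reduces lipid peroxides, and 3 wild-type (WT) samples. All were spleen natural killer T cells of the mouse in the resting state, sorted by flow cytometry. By its design the study asked what loss of Gpx4 does to the transcripts of these cells. The names of the 6 libraries in the table, numbers 18 to 23 with index sequences, matched 0 of the labels, so no library was given a genotype and no Gpx4 cKO against WT comparison was made. The labels name neither the Cre driver that deleted Gpx4, nor an age, nor whether the samples came from separate mice. Values are therefore given library by library, and no library was treated as a replicate of another.

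Mitosis is driven by cyclin-dependent kinase 1 (Cdk1) bound to cyclin A or B, and it ends when the anaphase-promoting complex with Cdc20 marks the cyclins for destruction. In between, Aurora and Polo-like kinases build the spindle, kinetochores join chromosomes to microtubules, the spindle checkpoint delays anaphase, and condensin with topoisomerase II compacts and untangles the chromosomes. Most of these genes are transcribed late in the cell cycle and are repressed in resting cells by the DREAM complex, which in mouse and human binds the cell cycle genes homology region (CHR) near the gene start, often downstream of CCAAT boxes bound by NF-Y. Resting splenic iNKT cells are mostly out of cycle, and their transcripts of this kind come as a rule from a minority of cells. In bulk RNA a larger share of cycling cells and more mitotic RNA per cycling cell cannot be told apart.

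The promoters show the sequence features that many members have in common. RefSeq promoter windows of build GRCm38.p6, 250 bases before to 50 bases after the gene start, were matched by symbol for 33 of the 39 members; Ccna2, Aurkb, Incenp, Kif20a, Tpx2 and Smc4 had no entry. The CHR core, spelled TTTGAA and searched on both strands, was in 25 of the 33 windows (75.8%). It was in 11.9% of the 6938 windows of all genes with at least 200 reads, and in 16.6% of all 18884 windows. Within 50 bases of the start it was in 22 member windows (66.7%), against 2.74% of the windows of all such genes. The NF-Y box, spelled CCAAT on either strand, was in 24 member windows (72.7%) and in 38.9% of those of all genes with at least 200 reads. Both words were in 21 windows, TTTGAA alone in 4, CCAAT alone in 3 and neither in 5, and no match of one word overlapped a match of the other. E2F-type words (TTTCGCGC, TTTGGCGC, TTTCCCGC and TTTGCCGC, both strands) were found in 4 member windows (12.1%) and in 4.60% of those of all such genes. In 70 windows matched for 92 other mitosis genes, TTTGAA was in 52.9%, CCAAT in 71.4% and an E2F-type word in 8.57%. Among 40 windows of DNA replication and G1/S genes, E2F-type words (32.5%) were more frequent than TTTGAA (17.5%). CCAAT was in 60% of those 40 windows. A match describes the letters of a window and does not show that a factor binds there. TTTGAA was the only spelling searched for the CHR core, so a window without it was not shown to lack a CHR.

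A set of 7 of these promoters is printed, from 150 bases before to 30 bases after the RefSeq start, on the strand of the gene, with TTTGAA or its reverse complement TTCAAA, and CCAAT or its reverse complement ATTGG, in capitals. Mki67 (chr7:135716350-135716529, minus strand), Top2a (chr11:99024160-99024339, minus strand), Cdk1 (chr10:69352883-69353062, minus strand), Ccnb2 (chr9:70421525-70421704, minus strand) and Cdc20 (chr4:118437314-118437493, minus strand) hold both words and stand for the commonest arrangement. Ccnb1 (chr13:100786457-100786636, minus strand) holds CCAAT without TTTGAA, and Nuf2 (chr1:169531435-169531614, minus strand) holds neither. All are on GRCm38.
Mki67: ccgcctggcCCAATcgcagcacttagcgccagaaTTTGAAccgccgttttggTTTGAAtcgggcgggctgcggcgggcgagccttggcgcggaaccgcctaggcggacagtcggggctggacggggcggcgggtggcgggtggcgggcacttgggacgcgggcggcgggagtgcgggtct
Top2a: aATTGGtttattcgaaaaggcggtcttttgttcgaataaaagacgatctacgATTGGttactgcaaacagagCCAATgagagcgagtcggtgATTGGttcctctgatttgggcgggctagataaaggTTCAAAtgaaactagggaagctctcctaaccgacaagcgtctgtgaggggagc
Cdk1: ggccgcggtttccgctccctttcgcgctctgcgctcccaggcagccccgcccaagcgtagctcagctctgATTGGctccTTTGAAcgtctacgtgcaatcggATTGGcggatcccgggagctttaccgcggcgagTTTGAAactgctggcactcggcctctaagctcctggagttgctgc
Ccnb2: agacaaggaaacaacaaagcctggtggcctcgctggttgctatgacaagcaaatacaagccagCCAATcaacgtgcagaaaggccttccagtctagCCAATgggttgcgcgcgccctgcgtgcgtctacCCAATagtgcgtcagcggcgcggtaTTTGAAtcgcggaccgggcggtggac
Cdc20: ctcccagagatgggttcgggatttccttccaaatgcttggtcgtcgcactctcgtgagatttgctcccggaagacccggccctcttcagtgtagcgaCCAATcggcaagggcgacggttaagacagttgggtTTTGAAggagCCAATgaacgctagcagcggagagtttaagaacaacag
Ccnb1: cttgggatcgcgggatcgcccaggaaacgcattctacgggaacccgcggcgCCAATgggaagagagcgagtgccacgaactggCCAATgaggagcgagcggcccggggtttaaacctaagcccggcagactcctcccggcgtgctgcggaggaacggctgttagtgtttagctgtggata
Nuf2: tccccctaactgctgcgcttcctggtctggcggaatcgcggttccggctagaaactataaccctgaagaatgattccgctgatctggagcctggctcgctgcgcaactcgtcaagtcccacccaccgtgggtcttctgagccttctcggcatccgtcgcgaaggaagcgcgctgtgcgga
In Cdk1 and Ccnb2 a TTTGAA lay 15 and 4 bases from the start, downstream of all the CCAAT boxes printed. In Cdc20 a CCAAT box lay on either side of the TTTGAA word. In Mki67 the nearest TTTGAA began 98 bases from the RefSeq start, which was itself 18 bases from the start of the deposited gene. The RefSeq start lay farther from the deposited one in Kif4 (328 bases) and in Kif2c (3867 bases). Top2a, with 6 CCAAT boxes in its whole window, shared with Ube2c the highest number among the members.

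**Figure D1:**
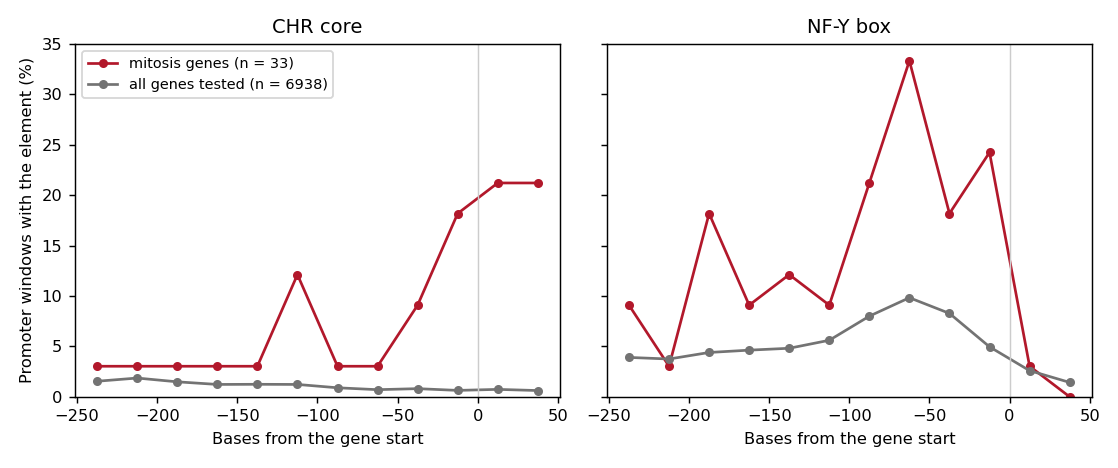
Share of promoter windows (vertical axis, %) in which the CHR core (left panel) or the NF-Y box (right panel) begins, in bins of 25 bases along the distance from the RefSeq gene start (horizontal axis), for 33 mitosis genes (red) and for 6938 genes with at least 200 reads (grey). In the mitosis genes the CHR core was most frequent from the start onwards and the NF-Y box upstream of it.

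Library depth differed 11.2-fold, with total exon reads of 8020374, 10122187, 5432206, 903524, 5406110 and 1916746 in libraries 18 to 23. Libraries 21 and 23, where the mitosis genes were highest, had the fewest reads and the highest shares of exon reads on mitochondrial genome genes (4.99% and 4.15%, against 3.36% to 3.62% in the others). Markers of iNKT cells summed to 3852 to 5287 CPM (reads per 1000000 on effective library sizes), with Trav11 at 49.5 to 81.6 CPM and Zbtb16 at 245 to 357 CPM. B cell markers summed to 255.5 to 878.9 CPM, mostly Ighm, and plasma cell markers to 274.3 to 1338 CPM, mostly Jchain. Jchain was 955 CPM in library 21 and 1185 CPM in library 23, against 149.5 to 875 CPM in the others. The plasma cell sum was 274, 704, 1035, 1082, 962 and 1338 CPM in libraries 18 to 23, so library 21 was close to library 20. For the 5 plasma cell markers with at least 200 reads, log2 of CPM + 1 was taken relative to each gene's own median. Its median over these genes was -0.78, -0.33, 0.10, -0.08, 0.27 and 0.15 in libraries 18 to 23. Germinal centre B cell markers summed to 39.8 to 58.9 CPM, with Rgs13 between 0 and 0.369 CPM. Erythroid markers summed to 6.39, 12.4, 133, 117, 152 and 457 CPM in libraries 18 to 23. Myeloid markers summed to 72.5 to 103.9 CPM, mostly Cst3, with S100a8 at 0 in every library. Genes listed as natural killer cell markers summed to 65.9 to 115 CPM, and those listed for conventional T cells to 372 to 520 CPM. The latter sum was mostly Cd4, with Cd8a at 0 in all libraries but library 22 (0.185 CPM). Whether the reads of these lists came from other cells or from the iNKT cells was not tested. Gpx4 itself was 30.1, 3.20, 31.3, 14.5, 29.0 and 11.1 CPM in libraries 18 to 23. The part of depth, of mitochondrial share and of other cell types in the levels of the mitosis genes was not tested.

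Summed over the 39 genes, library 23 had 2601 CPM (95% Poisson interval 2529 to 2674) and library 21 had 2381 CPM (2277 to 2488). Library 19 had 1499.7 CPM (1476 to 1523), library 18 had 1447 CPM (1421 to 1473), library 20 had 1202 CPM (1174 to 1232) and library 22 had 1198 CPM (1169 to 1228). The intervals of libraries 21 and 23 lay above all the others, and those of libraries 20 and 22 overlapped each other below the rest. As a share of exon reads the genes took 0.257% of library 23 and 0.120% of library 22. The sum was 1.09-fold higher in library 23 than in library 21 (interval 1.04 to 1.15). The genes Hmgb2, Mki67, Smc4 and Top2a, supplied 59.1% to 71.5% of the sum. The other 35 genes together stood at 974 CPM in library 21 and 820 CPM in library 23, against 341 to 503 CPM in the other libraries, with library 21 the highest. That order rested on Tpx2, which contributed 217 CPM in library 21. Without it the other 34 genes stood at 777 CPM in library 23 and 757 CPM in library 21, against 330 to 485 CPM in the other libraries, a split made after the values were seen.

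Gene by gene, 23 of the 26 members with at least 200 reads (88.5%) varied between libraries beyond counting error (chi-square test, adjusted p under 0.05), against 71.6% of all 9042 genes tested. The highest over lowest CPM ratio of the 26 had a median of 3.5, against 1.58 over all genes tested. Only 7 of the 26 stayed within a 2-fold range, against 6592 of the 9042. The members were also lower in level, with a median of 16.5 CPM against 39.4 CPM over all genes tested. Counting error widens such ratios at low levels, and neither contrast was matched for level. None of the 26 was highest in a library other than 23 (14 members, background 22.1%) or 21 (12 members, background 25.4%). With exon read totals in place of effective library sizes these counts were 16 in library 23, 9 in library 21 and 1 elsewhere. The lowest value fell in library 20 for 12 members (background 12.1%) and in library 22 for 12 members (background 11.6%). Libraries 21 and 23 were the pair of highest libraries for 20 of the 26 (background 12.2%), and libraries 20 and 22 the pair of lowest for 16 (background 6.24%), a way of counting chosen after the values were seen. Without library 21, library 23 was highest for 25 of 26 members, and without library 23, library 21 was highest for 20 of 24. Across all 39 genes, including the 13 with under 200 reads, 22 were highest in library 23 and 17 in library 21. The backgrounds above are for genes with at least 200 reads, so they do not apply to these counts. Every member had at least 1 read in every library, but 14 of the 39 had under 10 reads in library 21, and total reads ran from 54 in Ttk to 13865 in Hmgb2.

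**Figure D2:**
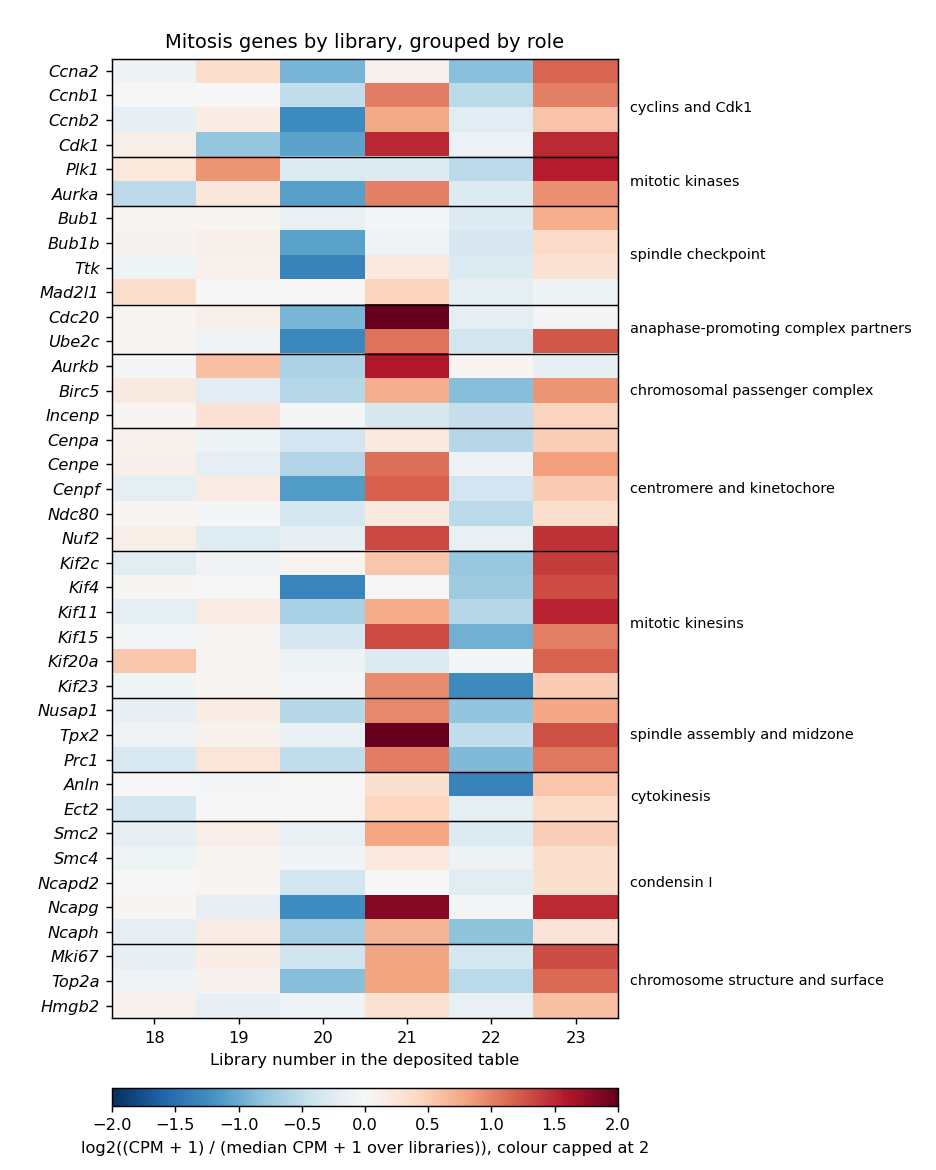
Heat map of the 39 mitosis genes (rows, grouped by role) in the 6 libraries (columns, by number). Colour is the log2 of CPM + 1 over the gene's median CPM + 1 over libraries, red above and blue below the median, capped at 2, which Tpx2 and Cdc20 exceed in library 21. Columns 21 and 23 are red for most genes, and columns 20 and 22 blue.

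The cyclins and Cdk1 supply the kinase activity that starts mitosis, and all 4 were at low levels. Ccnb2, which encodes cyclin B2 and was the most abundant of the 4, was 7.83, 9.89, 3.09, 15.7, 7.38 and 13.7 CPM in libraries 18 to 23. Ccna2, encoding cyclin A2, was 6.26, 8.85, 3.09, 7.24, 3.32 and 16.3 CPM in the same order. Both varied (chi-square test, adjusted p = 6.39e-06 for Ccnb2 and 1.19e-09 for Ccna2), and both were lowest in library 20. For Ccnb2 the interval in library 20 lay below that of every other library, a pattern seen in 0.365% of all genes tested. Cdk1 was 6.26, 2.92, 2.18, 18.1, 5.17 and 17.9 CPM, with 172 reads in total, too few for the test. Its ratio of library 21 to library 20 was 8.30 (95% interval 3.63 to 19.4), the extremes being picked from 6 values. Ccnb1, encoding cyclin B1, was 4.22, 4.24, 2.73, 9.65, 2.58 and 9.49 CPM on 135 reads. In Cdk1 and Ccnb1 alike, libraries 21 and 23 were nearly equal and over 2 times the next value.

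Among the mitotic kinases, Aurka, the Aurora A kinase of centrosomes and spindle poles, was 4.82, 8.76, 2.91, 15.7, 5.91 and 14.8 CPM and varied (chi-square test, adjusted p = 4.82e-09). Plk1, the Polo-like kinase that acts at centrosomes and kinetochores, was 11.1 CPM in library 23 and 2.41 CPM in library 21, within a range of 1.85 to 11.1 CPM on 146 reads. Plk1 thus stood high in library 23 and near its lowest value in library 21, where it rested on under 10 reads.

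Spindle checkpoint genes encode the sensors that hold anaphase back until every kinetochore is attached. Mad2l1, encoding Mad2, was 19.2, 14.7, 14.9, 20.5, 12.9 and 13.7 CPM, and with a ratio of 1.59 (0.876 to 2.73) it did not pass the test (chi-square test, adjusted p = 0.0558, range over alternatives 0.0361 to 0.562). Library 23 was not among its high libraries. Bub1b, encoding BubR1, was 12, 12.3, 4.91, 10.9, 8.86 and 15.3 CPM and varied (chi-square test, adjusted p = 0.000152), but without library 20 it no longer passed (adjusted p = 0.219, range over alternatives 6.59e-05 to 0.219). Bub1 ranged from 2.95 to 6.85 CPM and the checkpoint kinase gene Ttk from 0.182 to 2.64 CPM, on 123 and 54 reads. The sum of the 4 genes lay between 23.3 and 38.5 CPM, a 1.65-fold range, the narrowest of the 11 roles after condensin.

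The partners of the anaphase-promoting complex were both under the read minimum. Ube2c, the E2 enzyme that starts ubiquitin chains on cyclin B, was 4.82, 4.33, 1.27, 10.9, 3.32 and 12.1 CPM. Cdc20, the activator that brings substrates to the complex, was 25.3 CPM in library 21 and 1.82 to 4.80 CPM in the other libraries. Its 21 reads in library 21 set that library apart from library 23, which at 4.22 CPM was close to the rest.

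Of the chromosomal passenger complex, which corrects faulty kinetochore attachments and then directs cytokinesis, Incenp was the most abundant member. The scaffold gene Incenp was 67.9, 81.3, 64.5, 53.1, 47.6 and 90.2 CPM and varied (chi-square test, adjusted p = 4.32e-14). Library 23 was its highest and library 21 its second lowest. Birc5, encoding survivin, lay between 2.95 CPM (library 22) and 12.1 CPM (library 23), and the kinase gene Aurkb from 1.27 to 4.33 CPM outside library 21, where it was 9.65 CPM.

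Genes of the centromere and kinetochore, the structure that holds spindle microtubules, were highest in libraries 21 and 23. Cenpe, a kinesin that moves chromosomes to the spindle equator, was 35.1, 28.7, 21.5, 71.2, 30.3 and 58.5 CPM (chi-square test, adjusted p = 2.43e-20), with a ratio of 3.32 (2.39 to 4.57). Cenpf, a large protein of the outer kinetochore, was 20.7, 26.8, 10.4, 55.5, 17.9 and 34.3 CPM (chi-square test, adjusted p = 6.84e-20), with a ratio of 5.36 (3.55 to 8.04) and an interval in library 20 below all others. In both genes the level in library 21 was above that in library 23. Cenpa, the histone H3 variant that marks the centromere, ranged from 11.6 to 25.3 CPM and varied (chi-square test, adjusted p = 0.000542). Of the Ndc80 complex, which binds microtubules, Ndc80 ranged from 7.57 to 14.8 CPM and did not pass (chi-square test, adjusted p = 0.0572, range over alternatives 0.0368 to 0.257), and Nuf2, whose promoter window held neither word, was 14.5 CPM in library 21 and 15.8 CPM in library 23 against 4.24 to 5.78 CPM in the others.

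Mitotic kinesins are the motors that push spindle poles apart, carry chromosomes or build the midzone. Kif11, which drives pole separation, was 16.7, 21.5, 11.8, 32.6, 12.6 and 56.9 CPM and varied (chi-square test, adjusted p = 1.41e-35), with a ratio of 4.82 (3.51 to 6.66). Kif4, a chromosome-bound kinesin, was 9.88, 9.70, 3.27, 9.65, 5.54 and 25.3 CPM (chi-square test, adjusted p = 4.60e-16), so that library 21 stood level with libraries 18 and 19. Kif15, which can share the work of Kif11, was 41.0 CPM in library 21 and 33.2 CPM in library 23 against 7.75 to 16.4 CPM elsewhere (chi-square test, adjusted p = 3.00e-18). The microtubule depolymeriser Kif2c ranged from 1.85 to 11.6 CPM, the centralspindlin motor Kif23 from 1.29 to 9.65 CPM and the midzone kinesin Kif20a from 3.62 to 11.6 CPM, each on under 200 reads. Kif20a was the member whose lowest value was in library 21, on 3 reads.

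In the group for spindle assembly and the midzone, Tpx2 (chr2:152847964-152895321, plus strand), which activates Aurora A and helps microtubules to form, was 16.1, 17.9, 15.5, 217, 11.8 and 42.7 CPM. Its 180 reads in library 21 put that library 5.09-fold above library 23, and the ratio of library 21 to library 22 was 18.4 (13.8 to 24.9). The interval in library 21 lay above all others, as in 2.46% of all genes tested. Only 3 intron reads accompanied those 180 exon reads. Leaving library 21 aside, Tpx2 still had its highest value in library 23, 3.61-fold above library 22. Prc1, which bundles the antiparallel microtubules of the midzone, was 14.3, 21.4, 12.4, 37.4, 9.23 and 38.0 CPM and varied (chi-square test, adjusted p = 1.17e-20). Nusap1, a microtubule stabiliser, ranged from 7.2 to 26.5 CPM with the same high pair of libraries (chi-square test, adjusted p = 1.00e-09).

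Of the cytokinesis genes, Ect2, the exchange factor that switches on RhoA at the cleavage plane, was 9.40, 12.3, 12.2, 16.9, 10.5 and 16.3 CPM and did not pass (chi-square test, adjusted p = 0.0863, range over alternatives 0.0563 to 0.309). Anln, encoding the ring scaffold anillin, was 7.47, 7.34, 7.64, 9.65, 2.40 and 11.6 CPM and varied (chi-square test, adjusted p = 0.000526). That variation rested on the low value in library 22, whose interval lay below all others (background 0.254%), and without library 22 it no longer passed (adjusted p = 0.412, range over alternatives 0.000321 to 0.412).

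Condensin I, the ring that compacts mitotic chromosomes, joined abundant and scarce subunits. Smc4, one of its ATPase subunits, was 199, 220, 205, 244, 197 and 266 CPM (chi-square test, adjusted p = 2.98e-08), a ratio of only 1.35 (1.21 to 1.5). Smc2, its ATPase partner, ranged from 45.8 to 95.3 CPM (chi-square test, adjusted p = 2.92e-12). Of the subunits found in condensin I alone, Ncapg was 9.40, 8.0, 3.27, 35, 8.86 and 27.4 CPM (chi-square test, adjusted p = 1.53e-28), with a ratio of 10.7 (5.74 to 20.4) and an interval in library 20 below all others. Ncaph ranged from 4.98 to 15.7 CPM (chi-square test, adjusted p = 0.000143). Ncapd2 ranged from 20.5 to 33.7 CPM and passed narrowly (chi-square test, adjusted p = 0.0232), but not without library 20 (0.179) or library 23 (0.0767; range over alternatives 0.0123 to 0.179). The ratio thus ran from 1.35 to 10.7 among subunits of the same complex.

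The last role holds proteins of chromosome structure and surface, and it had the highest levels. Its genes lie at chr7:135689784-135716361 (Mki67, minus strand), chr11:98992943-99024189 (Top2a, minus strand) and chr8:57511907-57515999 (Hmgb2, plus strand) in the deposited table. Mki67, encoding the Ki-67 coat of mitotic chromosomes, reached 558 CPM (library 23) and 392 CPM (library 21), against 250.4 CPM (library 19), 201 CPM (library 18), 177 CPM (library 22) and 171 CPM (library 20) (chi-square test, adjusted p = 1.34e-247). Top2a, encoding topoisomerase II alpha, was 303 CPM (library 23) and 239 CPM (library 21), against 144 CPM (library 19), 131 CPM (library 18), 94.5 CPM (library 22) and 76.0 CPM (library 20) (chi-square test, adjusted p = 5.15e-145). Both genes put the 6 libraries in the same order. The chromatin protein gene Hmgb2 was 457, 383, 404, 532, 389 and 653 CPM (chi-square test, adjusted p = 2.48e-70), with a ratio of 1.71 (1.60 to 1.82). In these 3 genes the interval in library 23 lay above those of all other libraries, as in 2.02% of all genes tested, and the Top2a interval in library 20 lay below all others.

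**Figure D3:**
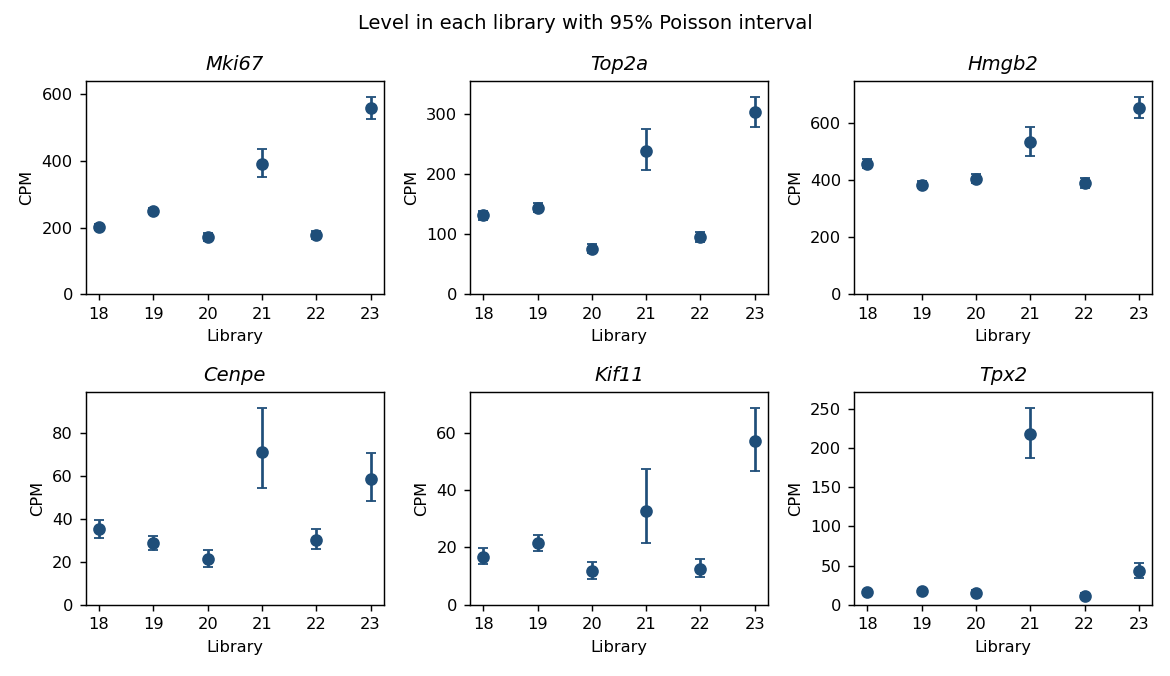
CPM (vertical axes, from 0) of Mki67, Top2a, Hmgb2, Cenpe, Kif11 and Tpx2 in each of the 6 libraries (horizontal axes); points are single libraries and bars are 95% Poisson intervals, which cover counting error only. Libraries 21 and 23 hold the highest pair of points in each panel, and in Tpx2 library 21 reaches 217 CPM.

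Per kilobase of exon, the order of levels changed. By the deposited RPKM, Hmgb2 had the highest median over libraries (76.3 RPKM, range 62.2 to 111), followed by Smc4 (19.5, range 16.3 to 23.3), Mki67 (11.0, range 7.03 to 25.3), Incenp (9.17, range 7.2 to 12.8) and Top2a (7.49, range 3.49 to 15.3). The ranges of Mki67, Incenp and Top2a overlapped one another, while Hmgb2 stood above the rest in every library. These 5 genes were the members with a median of at least 5 RPKM. At the other end, 30 members had a median under 2 RPKM and 17 under 1 RPKM, Cdk1 (0.801 RPKM), Ccnb1 (0.491 RPKM) and Plk1 (0.643 RPKM) among them.

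Intron reads, which can come from unspliced transcripts, gave a second readout of the same genes. Their source was not tested. The members' introns summed to 418, 380, 386, 559, 367 and 499.6 reads per 1000000 intron reads in libraries 18 to 23. Libraries 21 and 23 were again highest, 1.52-fold (1.37 to 1.69) and 1.36-fold (1.25 to 1.48) above library 22, a smaller range than the 2.17-fold of the exon reads. Anln supplied 66 of the intron reads of library 21, or 84.4 per 1000000 against at most 11.6 per 1000000 in any other library. Without Anln the sums were 411, 374, 377, 474, 362 and 488 per 1000000, and library 23 was highest, 1.35-fold above library 22. Introns made up 14.3% (library 23) and 18.1% (library 21) of the members' reads, against 24.5% (library 20), 21% (library 18), 20.3% (library 22) and 18% (library 19). Over all genes the share was 45.5% to 50.6%, highest in library 20. The share differed widely among members, with 2.8% of reads on introns in Mki67 and 6.6% in Top2a against 27.2% in Smc4 and 56.7% in Cenpa. Library 20 had the highest intron share for 12 of the 26 tested members, against 20.9% of all genes tested.

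**Figure D4:**
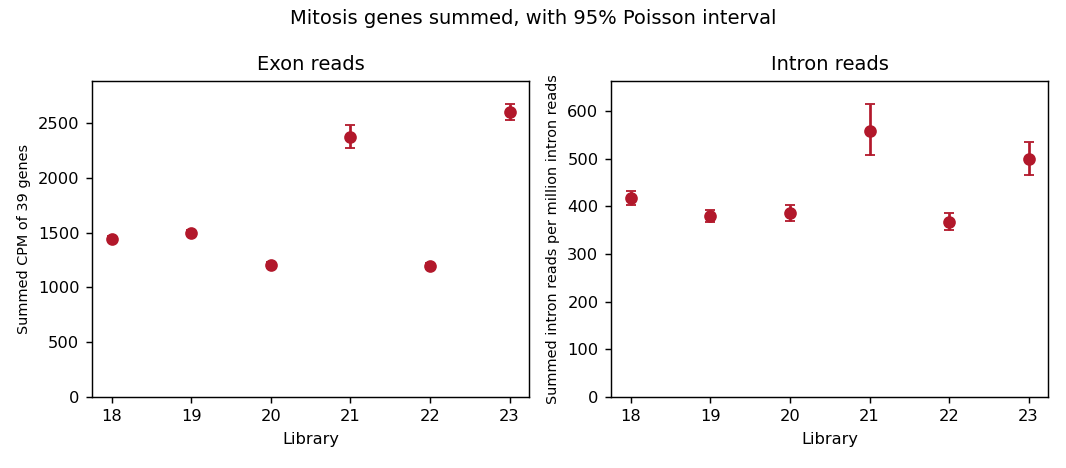
Summed level of the 39 mitosis genes in each library (horizontal axes), as CPM of exon reads (left) and as intron reads per 1000000 intron reads (right), with 95% Poisson intervals and vertical axes from 0. Libraries 21 and 23 are highest in both panels, and the range is wider for exon reads.

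Other genes of the cell cycle were read from lists of the same kind. Of 92 other mitosis genes, 54 had at least 200 reads and 48 of these varied, against 71.6% of all genes tested. Of the 54, 30 were highest in library 23 (background 22.1%) and 18 in library 21 (background 25.4%). The leading 3 were Tubb5 (a tubulin, 506 to 631 CPM), H2afz (a histone variant, 174 to 382 CPM) and Ckap5 (a microtubule polymerase, 162 to 257 CPM). The widest ratios were in Ncaph2, a condensin II subunit at 4344 CPM in library 21 against 73.8 to 91.4 CPM elsewhere, and in Kif14, a cytokinesis kinesin at 7.35, 11.4, 3.45, 15.7, 4.80 and 32.2 CPM. The median over the 54 genes of the log2 of CPM + 1 relative to each gene's own median was 0.33 in library 21 and 0.49 in library 23. For the 26 mitosis genes described above it was 0.71 in library 21 and 0.59 in library 23, with -0.45 in library 20 and -0.43 in library 22. Over all genes tested it lay within 0.01 of 0 in every library, where the scaling to effective library sizes places it. With exon read totals as library sizes the median of all genes in library 21 moved by -0.12, and the 26 members were 0.73 above it. A library size rescales all genes of a library alike. Apart from the added 1, that gap therefore cannot change with the scaling.

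DNA replication and G1/S genes, which act before mitosis, numbered 52, of which 40 were tested and 32 (80.0%) varied, near the 71.6% of all genes tested. Of the 40, 27 were highest in library 23 (background 22.1%) and 6 in library 21 (15% of them, under the background of 25.4%). Their median log2 level was 0.42 in library 23 and 0.10 in library 21. Dnmt1, the maintenance DNA methyltransferase and the most abundant, was 793 CPM in library 22 against 266 to 307 CPM elsewhere, while Pcna, the sliding clamp, stayed at 155 to 178 CPM and did not pass (chi-square test, adjusted p = 0.444). Mcm4, a helicase subunit, ranged from 118 to 157 CPM. The widest ratios were in the chromatin assembly genes Chaf1b (1.21 to 12.4 CPM, lowest in library 21 on 1 read) and Chaf1a (3.69 to 20.03 CPM, highest in library 23). Library 21 was thus high in the mitosis genes and close to the middle in the replication genes; the difference between the lists was not tested.

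Summed over their genes, the remaining lists stayed closer to level. All 9 cohesin genes found in the table varied (71.6% of all genes tested did), each within 2-fold as 6592 of the 9042 genes tested were, with a summed ratio of 1.15; Nipbl (720 to 858 CPM), Smc1a (356 to 523 CPM) and Pds5a (334 to 389 CPM) led, and Smc1a and Stag1 (101 to 147 CPM) had the widest ratios. Of the 16 core subunits of the anaphase-promoting complex 10 (62.5%) varied, under the 71.6% of all genes tested, with a summed ratio of 1.04. Anapc1 (272 to 299 CPM), Anapc5 (114 to 128 CPM) and Cdc27 (86.5 to 109 CPM) led, and Anapc15 (4.83 to 16.3 CPM) and Anapc7 (16.3 to 44.6 CPM) had the widest ratios. Among 19 regulators of mitotic transcription, 16 were tested and 10 (62.5%) varied, again under the 71.6% of all genes tested. The DREAM component gene Rbl2, encoding p130, was 410, 442, 399, 294, 370 and 295 CPM, lowest in libraries 21 and 23. Of the 16 tested regulators, 6 had their lowest value in library 21 and 5 in library 23. Over all 9042 genes tested, 2517 were lowest in library 21 and 1983 in library 23. A link between Rbl2 and the mitosis genes was not tested. Rbbp4 (315 to 360 CPM) and Rb1 (95.4 to 115 CPM) followed Rbl2 in level. Foxm1, which activates late cell cycle genes, was 13, 9.70, 10.7, 19.3, 6.65 and 26.9 CPM (chi-square test, adjusted p = 8.42e-11), highest in libraries 23 and 21, and Lin9, a core DREAM component, ranged from 6.03 to 19.2 CPM. Of 19 G1 cyclins, kinases and inhibitors 14 were tested and 12 varied (85.7%, against 71.6% of all genes tested), with a summed ratio of 1.05. Gene by gene this list was less level, with a median ratio of 1.79 against 1.58 over all genes tested. In it 6 of the 14 genes went over 2-fold, against 2450 of the 9042 genes tested. Ccnd2, encoding cyclin D2, was 1079 to 1281 CPM, and the antiproliferative genes Btg1 and Btg2 were 877 to 990 CPM and 141 to 321 CPM. The widest ratios there were in Klf2, a quiescence factor (8.38 to 67.5 CPM), and in Cdk6, a G1 kinase at 86.9 CPM in library 21 and 67.5 CPM in library 23 against 22.7 to 25.1 CPM elsewhere.

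**Figure D5:**
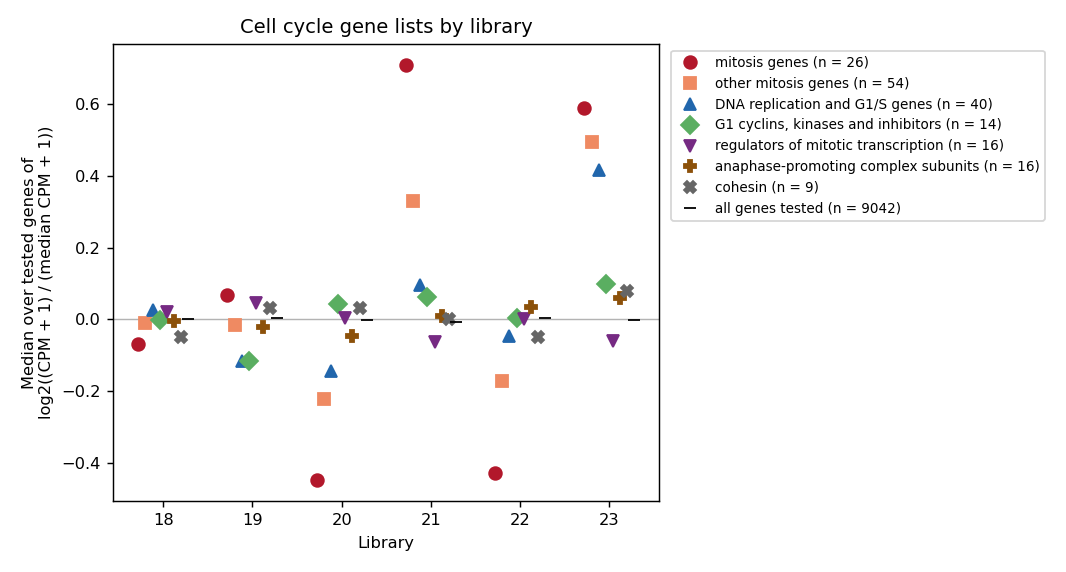
Median over the tested genes of each list (vertical axis) of the log2 of CPM + 1 relative to the gene's own median, by library (horizontal axis), with the number of genes in the legend. The mitosis genes stand at 0.71 and 0.59 in libraries 21 and 23 and at -0.45 and -0.43 in libraries 20 and 22. The dash for all genes tested lies near 0, where the scaling to effective library sizes places it.

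The members followed a common profile to different degrees. Over the 6 libraries, the Pearson correlation of each tested member's log2 of CPM + 1 with the mean of the other members had a median of 0.91 and was at least 0.8 in 20 of 26 members. Top2a (0.99) and Nusap1 (0.98) were closest to it, and Mad2l1 (0.35) and Incenp (0.36) farthest. These values describe 6 points that share libraries and depth, so no test was made of them. Of 6454 other genes with a mean of at least 20 CPM, the 10 with the highest correlation with the mean profile were Cit (0.979), Esyt1 (0.979), Itgb1bp1 (0.978), Iqgap2 (0.977), Casc5 (0.975), Gm9531 (0.973), Dtd1 (0.969), Reep3 (0.968), Tyw1 (0.965) and Whsc1 (0.962). Of these 10, 8 varied between libraries, while Itgb1bp1 (chi-square test, adjusted p = 0.116) and Tyw1 (adjusted p = 0.901, with a ratio of 1.18) did not pass. Cit, encoding citron kinase of the cytokinetic midbody, was 14.3, 13.9, 6.73, 38.6, 10.5 and 36.9 CPM, and Casc5, a kinetochore scaffold, was 21.6, 24.9, 12.4, 39.8, 17.5 and 52.7 CPM. Both were high in the libraries 21 and 23 and low in library 20.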

How the data were processed

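RNA of sorted splenic iNKT cells was sequenced in 6 samples, 3 Gpx4 cKO and 3 WT. Per the labels' protocols, the kits were NucleoSpin RNA XS Micro for RNA and QIAseq UPXome for libraries. The submitters' processing notes name GRCm38 and mm10 as builds. Which aligner and counter were used, and whether strand or molecular identifiers were, is not given in the sources used here. Per the file headers, the deposited table holds for each library exon read counts, exon lengths, RPKM values and the fraction of a gene's reads on introns. The deposited counts are whole and not normalized by the authors, the deposited fractions were used with the counts to recover intron reads, and the RPKM values were scaled by the authors to exon length and depth. How reads that match several loci were assigned is likewise unknown, which bears on genes with close copies such as Hmgb2, H2afz and Tubb5. Another 11 columns of values per library were not used.

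None of the library names occurs in a label, so the comparison of genotypes by edgeR's quasi-likelihood test was not run. CPM used effective library sizes from TMM factors (edgeR 4.0.16, R 4.3.3) on 9510 genes kept by filterByExpr with the libraries as 1 group. Genes with at least 200 reads in total (9042) were tested with a chi-square test of counts against effective library sizes, with 5 degrees of freedom and Benjamini-Hochberg adjustment over all of them at 0.05. The test says only whether libraries differ beyond counting error. Poisson intervals are exact at 95% (SciPy 1.17.1); ratio intervals take the ratio of 2 Poisson counts. Reads copied by PCR are not independent molecules, so intervals and tests cover counting error only. Alternatives were DESeq2 1.42.0 size factors, exon read totals as library size, minimums of 50 reads and of 1 read, leaving out each library, and leaving out single genes.

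The members and lists were chosen with earlier results of these data known. Per role, the member with the highest median CPM and the tested member with the widest ratio are given in full, with Mki67, Top2a, Ccnb1 and Cdk1. From each other list the 3 highest and the 2 widest are given, and then the 10 genes of most similar profile. Other named genes, and the promoters printed, were chosen after their values were seen. Promoter sequences are from RefSeq, GRCm38.p6, and motif shares count windows with at least 1 match.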

Additional observations from a re-analysis of the deposited data

Results flagged for a closer look

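A gap between a single library and its nearest neighbour that took up more of the whole range over the 6 libraries than Dixon's 95% critical value allows was found for 5 of the 39 mitosis genes on CPM. For 6 values drawn from 1 normal distribution, chance gives this in about 1 of 20 genes. That rate need not hold here, because depth, and with it counting error, differed between the libraries (11.2-fold in depth). Among genes with at least 200 reads it was found for 2 of 26 members (7.69%, Tpx2 and Kif4), under the 11.4% of all 9042 genes tested. On intron reads it was found for 1 of the 15 members with at least 200 intron reads, against 11.2% of the 8607 genes with as many. Library 21 stood above the others in Cdc20 (25.3 CPM, gap 0.873 of the range), Tpx2 (217 CPM, gap 0.850) and Aurkb (9.65 CPM, gap 0.635). Library 23 stood above the others in Kif4 (25.3 CPM, gap 0.70) and Bub1 (6.85 CPM, gap 0.767). The intron reads of Anln stood out in library 21 (84.4 per 1000000 intron reads, gap 0.921), while its exon level there, 9.65 CPM, did not. Cdc20, Aurkb and Bub1 had under 200 reads in total. The gaps take no account of counting error. Bub1 in library 23 rested on 13 reads, and its 95% Poisson interval (3.65 to 11.7 CPM) overlapped those of all other libraries.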

How the results depend on the processing

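No paired analysis was possible because the libraries carry no replicate number or genotype, and for the same reason the planned genotype comparison, its replicate block, its DESeq2 version and its versions without single replicates were not run. Over 68 recomputed counts and ratios, 56 stayed within 1.5 times the count or within the interval of the ratio. Some of these could not change. Leaving out library 18, 19, 20 or 23 left the intron ratio as it was, because its extremes were libraries 21 and 22. Leaving out library 18, 19, 20 or 21 moved the summed ratio only through the recomputed library sizes. With a minimum of 50 reads, or with none, all 39 members were tested, of which 34 varied. Over all genes tested, 69.3% varied with the minimum of 50 reads and 53.9% with none. Of the 39, 22 were highest in library 23, for which no background at these minimums is given. The summed ratio of 2.17 was 2.44 without Hmgb2 and 2.85 without the 4 members of highest median, or 2.36 without these and Tpx2, choices made after the values were seen. The intron ratio of 1.52 was 1.72 on effective exon library sizes and 1.35 without Anln, also chosen after the values were seen. Leaving out 1 library at a time gave 18 to 25 varying members, with fewer members tested in most cases. Of all genes tested, 61.2% to 68.3% varied in these runs. Members highest in library 23 numbered 11 to 25, and those highest in library 21 numbered 9 to 20. Members lowest in library 20 numbered 8 to 18, and those lowest in library 22 numbered 11 to 20. The summed ratios were 1.99 to 2.16 and the intron ratios 1.36 to 1.52. Of 247 recomputed tests of single members, 4 lost and 7 gained the call. Depth limits library 21 most, where 3 reads equal 3.62 CPM.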
